A study of Rattus norvegicus with 12 samples.

Results

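Nppa (ENSRNOG00000008176) and Nppb (ENSRNOG00000008141) are the rat genes for the precursors of atrial and B-type natriuretic peptide. They were taken by identifier from the table of gene counts, as 2 of its 19775 genes, and both were among the 10997 genes that passed the filter on low counts. The counts come from iAMs, a line made from neonatal rat atrial myocytes with a lentiviral vector that places SV40 large T antigen under doxycycline control, so that the cells divide with doxycycline and differentiate into cardiomyocytes without it. The study asked which genes respond to EF-1, a small-molecule agonist of the receptor ERBB4, and to NRG1 (neuregulin-1), a protein ligand of the same receptor. After 9 days of differentiation, cells received vehicle, NRG1 (0.1 µM) or EF-1 (32 µM) for 16 h, and polyA RNA was sequenced from 4 libraries per group. Vehicle libraries are numbered 1 to 4, NRG1 libraries 5 to 8 and EF-1 libraries 9 to 12. The vehicle is labelled PBS, and the study's methods describe DMSO in all wells. There was 1 dose of each agonist and 1 time point, and the doses differ, so each comparison of EF-1 with NRG1 holds for these doses.

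Atrial natriuretic peptide is stored in granules of atrial myocytes and released on stretch, and B-type natriuretic peptide is released from both atria and ventricles. Both peptides act on the receptor NPR1, a guanylyl cyclase that raises cGMP, and promote salt excretion and vasodilation. Both genes are active in the fetal heart, and their transcripts rise again in stressed or growing ventricular myocytes, where they serve as markers of hypertrophy.

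The vehicle libraries held between 12216228 and 27220266 gene counts each. The NRG1 libraries held 21384901 to 27467198, and the EF-1 libraries were the shallowest on average, with 13763279 to 17149059. Levels are given in CPM, the counts of a gene for each 1000000 gene counts of the library. At this depth the exact 95% binomial interval for the share of counts of a gene in a library had a half-width of at most 0.578% of the value for Nppa and 3.11% for Nppb. Differences between libraries smaller than this, such as those between vehicle libraries 1 and 2 for either gene, are within counting error. The intervals cover counting error only. Markers of atrial myocytes and of other cell types were not checked, because the identifiers were not matched to gene names. Vehicle library 4 had the lowest level of both genes among all 12 libraries, although over all genes it was not the most distant of its group. Between libraries of a group, chi-square over its degrees of freedom was 21.4 for vehicle libraries 4 and 2 and 119 for vehicle libraries 1 and 2. EF-1 library 12 was far from 2 libraries of its group over all genes, at 194 from library 10 and 169 from library 11. It was at 72.6 from library 9, which was itself at 73.8 from library 10 and 74.5 from library 11. Leaving out EF-1 library 12 moved the number of genes called between EF-1 and vehicle from 3 to 1554.

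Nppa was about as abundant with EF-1 as with vehicle and was about 1.94 times as abundant with NRG1 as with vehicle. In vehicle libraries 1 to 4 the Nppa level was 11093, 11123, 9338 and 7757 CPM, with a mean of 9828 ± 1613 (SD, n = 4). In NRG1 libraries 5 to 8 it was 22546, 18870, 17293 and 19363 CPM, with a mean of 19518 ± 2203 (SD, n = 4). In EF-1 libraries 9 to 12 it was 10686, 11891, 10436 and 10862 CPM, with a mean of 10969 ± 639 (SD, n = 4). All 4 NRG1 libraries lay above every vehicle and EF-1 library, while the EF-1 libraries lay partly within the vehicle range, with EF-1 library 10 alone above it. Nppa alone made up 0.776% to 1.11% of all gene counts in vehicle libraries, 1.73% to 2.25% in NRG1 libraries and 1.04% to 1.19% in EF-1 libraries. In bulk RNA, fewer cells of a type and less RNA per cell cannot be told apart.

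The Nppa log2 fold change of NRG1 over vehicle was 0.96 (SE 0.15, adjusted p = 3.60e-04, edgeR's quasi-likelihood test with Benjamini-Hochberg adjustment over 10997 genes). With an adjusted p threshold of 0.05 and a log2 fold change threshold of 0.58, 19.2% of tested genes were called in that comparison. The Nppa log2 fold change of EF-1 over vehicle was 0.18 (SE 0.15, 95% interval -0.15 to 0.50, adjusted p = 0.440, edgeR), which did not pass the test, and only 0.0273% of tested genes (3 genes) were called there. The upper end of that interval is a 1.41-fold higher level, so a rise of up to that size was not separable from no difference. Leaving out 1 library at a time gave log2 fold changes of 0.078 to 0.26, the lowest without vehicle library 4, and none passed the test. In the direct comparison Nppa was lower with EF-1 than with NRG1, with a log2 fold change of -0.78 (SE 0.15, adjusted p = 0.00133, edgeR), in a comparison where 26.9% of genes were called. The median log2 fold change of all tested genes was -0.0088 for EF-1 over vehicle, -0.010 for NRG1 over vehicle and 0.021 for EF-1 over NRG1.

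Nppb was higher in every NRG1 library, and by a smaller amount in every EF-1 library, than in any vehicle library. In vehicle libraries 1 to 4 the Nppb level was 476, 470, 463 and 208 CPM, with a mean of 404 ± 131 (SD, n = 4). In NRG1 libraries 5 to 8 it was 3347, 1608, 2541 and 2280 CPM, with a mean of 2444 ± 719 (SD, n = 4). In EF-1 libraries 9 to 12 it was 726, 1116, 1264 and 664 CPM, with a mean of 942 ± 293 (SD, n = 4). The 3 groups did not overlap. Vehicle libraries 1 to 3 were close together with library 4 far below them, and EF-1 libraries 10 and 11 were higher than EF-1 libraries 9 and 12. Among tested genes, 20.6% were higher without overlap in NRG1 than in vehicle libraries, 1.88% were higher without overlap in EF-1 than in vehicle libraries, and 19.2% were lower without overlap in EF-1 than in NRG1 libraries.

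**Figure D1:**
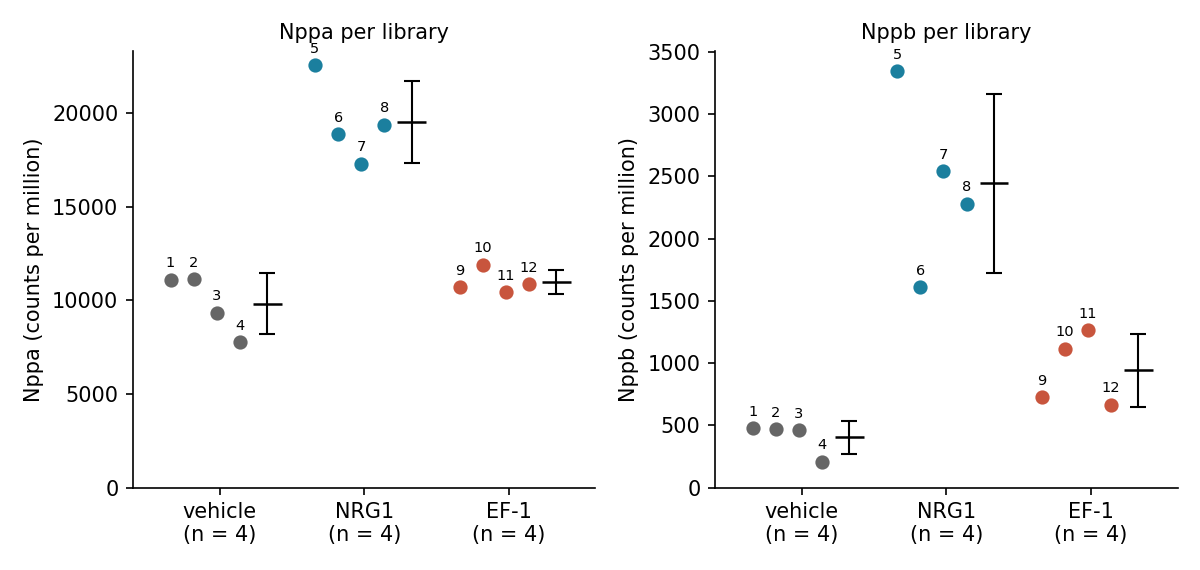
Nppa (left) and Nppb (right) in CPM of the library total, on linear axes from 0, for the vehicle, NRG1 and EF-1 groups; each point is 1 library with its number, the horizontal line is the group mean and the bar its SD (n = 4). The Nppa level of the EF-1 libraries (10436 to 11891) overlaps that of the vehicle libraries (7757 to 11123), with EF-1 library 10 alone above their range, while the Nppb level of the EF-1 libraries (664 to 1264) lies between the vehicle (208 to 476) and NRG1 libraries (1608 to 3347).

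The Nppb log2 fold change of NRG1 over vehicle was 2.56 (SE 0.33, adjusted p = 6.44e-05, edgeR), a 5.91-fold higher level, and 76 tested genes, or 0.691%, had a higher fold change. The Nppb log2 fold change of EF-1 over vehicle was 1.255 (SE 0.31, 95% interval 0.58 to 1.93), a 2.39-fold higher level, and 33 tested genes, or 0.300%, had a higher one. That difference did not pass edgeR's test after adjustment over all genes (adjusted p = 0.206), where Nppb stood at place 81 by p. Nppb was lower with EF-1 than with NRG1, with a log2 fold change of -1.31 (SE 0.31, adjusted p = 0.00518, edgeR).

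The Nppb difference between EF-1 and vehicle depended on the test and on single libraries. DESeq2 gave a log2 fold change of 1.27 with an adjusted p of 0.00792, and edgeR without EF-1 library 12 gave 1.40 with an adjusted p of 0.0223, both past the thresholds. Without vehicle library 4 edgeR gave 1.04 with an adjusted p of 0.486. A fit with 1 surrogate variable, estimated from all genes in place of the sequencing run, gave 0.84 with an adjusted p of 0.302. That variable was 0.14, 0.50, 0.46 and -0.32 in EF-1 libraries 9 to 12, 0.16, -0.41, 0.049 and -0.29 in vehicle libraries 1 to 4, and 0.14, -0.27, 0.055 and -0.20 in NRG1 libraries 5 to 8. Within the NRG1 group it had the same order as the Nppb level. In the EF-1 group it was highest in the pair of libraries with the highest Nppb level and lowest in the one with the lowest, and in the vehicle group it was lowest in library 2, while Nppb was lowest in library 4. Over all alternatives the adjusted p of this difference ranged from 2.67e-04 to 0.504, and the fold change stayed above 0.

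**Figure D2:**
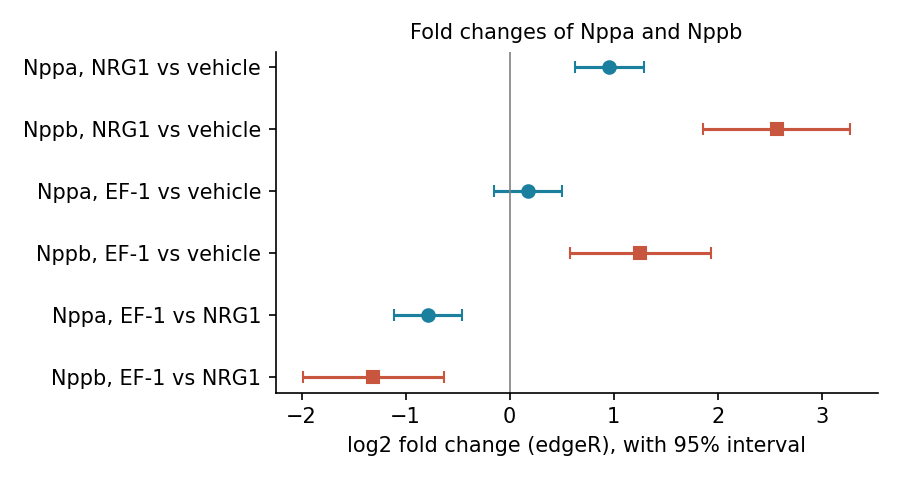
Log2 fold changes of Nppa (circles) and Nppb (squares) in the 3 comparisons, from edgeR's fit of all 12 libraries, with 95% intervals as bars and a vertical line at 0. The interval of Nppa for EF-1 over vehicle (-0.15 to 0.50) crosses 0, and the other 5 intervals do not.

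Each gene was also compared library by library on the log2(CPM + 1) scale, with two-sided exact permutation tests over the 70 assignments of 8 libraries. The smallest p that 4 against 4 libraries can give is 0.0286. Of 6 such tests, 5 gave that p (adjusted p = 0.0343 over the 6 tests, exact permutation test). These were the 3 comparisons of Nppb, with differences of 1.24 for EF-1 over vehicle, 2.62 for NRG1 over vehicle and -1.38 for EF-1 over NRG1, and the Nppa comparisons of NRG1 with vehicle (1.00) and of EF-1 with NRG1 (-0.83). In each of them all 4 libraries of one group lay on the same side of all 4 of the other. The remaining test, Nppa between EF-1 and vehicle, gave a difference of 0.17 (p = 0.286, adjusted p = 0.286, exact permutation test), which was 0.063 without vehicle library 4. Without vehicle library 4 the Nppb difference between EF-1 and vehicle was 0.95 and the groups still did not overlap, with an adjusted p of 0.0686 in the exact permutation test. The Nppb difference between EF-1 and NRG1 had the same adjusted p of 0.0686 without EF-1 library 9 (difference -1.27) and without EF-1 library 12 (difference -1.23, exact permutation test). In both cases all EF-1 libraries kept still lay below all NRG1 libraries.

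In order of mean level, both genes were lowest with vehicle, intermediate with EF-1 and highest with NRG1. For Nppa, vehicle and EF-1 are neighbours that did not differ beyond their spread, and EF-1 and NRG1 differed in both tests. For Nppb, EF-1 and NRG1 also differed in both tests, and vehicle and EF-1 were separated in the library test but not in edgeR's test over all genes.

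The level of the genes relative to each other was compared per length, with the TPM of a pair of Salmon transcripts whose ratio follows the ratio of the Nppa and Nppb counts. Among 2360 transcripts with a mean TPM above 50, ENSRNOT00000011005.5 (887 bases) and ENSRNOT00000010779.5 (672 bases) had a TPM ratio that followed the count ratio of Nppa to Nppb, up to a constant factor, to within 9.05e-05 on the log2 scale in all 12 libraries, where the next best pair deviated by 0.226. The match is of the ratio, and the TPM of either transcript does not follow the CPM of its gene as closely. The Nppa transcript had a mean of 13766 ± 2306 TPM with vehicle, 27932 ± 2271 with NRG1 and 14636 ± 1396 with EF-1 (SD, n = 4 each). The Nppb transcript had a mean of 1004 ± 323 TPM with vehicle, 6181 ± 1605 with NRG1 and 2189 ± 494 with EF-1 (SD, n = 4 each). Nppa was thus the more abundant transcript in every library of all 3 groups.

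The excess of Nppa over Nppb was smaller with either agonist than with vehicle. The Nppa to Nppb ratio of TPM was 13.1, 13.3, 11.4 and 21.0 in vehicle libraries 1 to 4. It was 3.79, 6.61, 3.83 and 4.78 in NRG1 libraries 5 to 8, and 8.29, 6.00, 4.65 and 9.21 in EF-1 libraries 9 to 12. Vehicle library 4 had the highest ratio, the NRG1 and EF-1 libraries all lay below the vehicle libraries, and the NRG1 and EF-1 libraries overlapped. The ratio does not depend on how libraries are scaled to each other. Its test used the counts, whose ratio differs from that of TPM by a nearly constant factor. The mean log2 ratio was lower with EF-1 than with vehicle by a difference of -1.07 and lower with NRG1 than with vehicle by a difference of -1.63 (p = 0.0286 and adjusted p = 0.0429 for each, 3 two-sided exact permutation tests). Between EF-1 and NRG1 the difference of 0.55 did not pass the test (p = 0.143, exact permutation test). Without vehicle library 4 the differences from vehicle were -0.89 for EF-1 and -1.44 for NRG1, with an adjusted p of 0.0857 for each in the exact permutation test, and the smaller ratio in all agonist libraries remained.

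**Figure D3:**
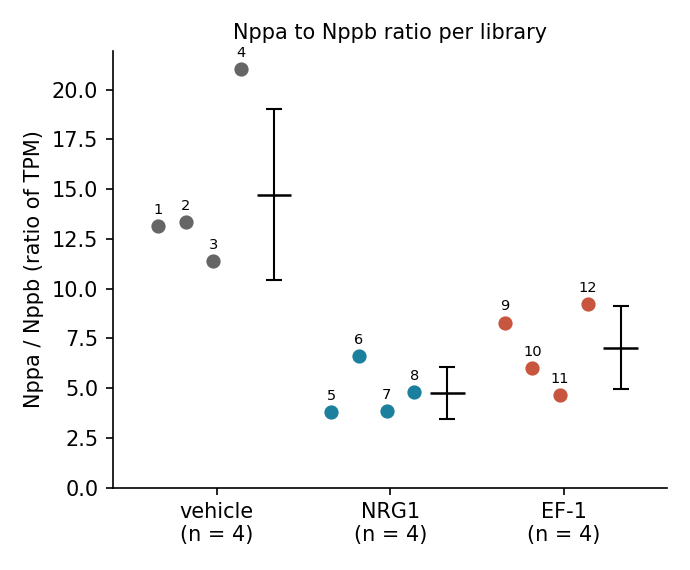
Ratio of the Nppa to the Nppb level in TPM, on a linear axis from 0, for the vehicle, NRG1 and EF-1 groups; each point is 1 library with its number, the horizontal line is the group mean and the bar its SD (n = 4). The vehicle libraries lie between 11.4 and 21.0, and all NRG1 (3.79 to 6.61) and EF-1 libraries (4.65 to 9.21) lie below them.

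By count, Nppa was among the 10 most abundant genes in each of the 12 libraries. With 1 as the most abundant gene, its rank by CPM among 19775 genes was 5, 8, 9 and 10 in vehicle libraries 1 to 4, 2, 3, 2 and 3 in NRG1 libraries 5 to 8, and 4, 5, 5 and 7 in EF-1 libraries 9 to 12. The rank of Nppb was 267, 222, 276 and 797 in the vehicle libraries, 21, 42, 24 and 25 in the NRG1 libraries, and 143, 78, 67 and 141 in the EF-1 libraries. These ranks follow counts, which favour long transcripts. Ranks by TPM are among single transcripts in place of genes, so the 2 kinds of rank are not over the same features. By TPM the Nppa transcript ranked from 4 to 13 with vehicle, at 3 in all NRG1 libraries and from 4 to 6 with EF-1. The Nppb transcript ranked from 71 to 225 with vehicle, from 8 to 24 with NRG1 and from 49 to 68 with EF-1. By either measure Nppb held a higher place in every EF-1 library than in any vehicle library. Together the pair took up 1.02% ± 0.173 of gene counts with vehicle, 2.20% ± 0.273 with NRG1 and 1.19% ± 0.0740 with EF-1 (SD, n = 4 each).

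With NRG1 and with EF-1, Nppb varied more between libraries of a group than Nppa did, and with vehicle this rested on library 4. The within-group SD of log2(CPM + 1) was 0.44 for Nppb and 0.16 for Nppa with NRG1, where the median gene had 0.15. With EF-1 it was 0.46 for Nppb and 0.082 for Nppa, against a median of 0.26. More variable than Nppb were 2.53% of genes with NRG1 and 11.2% with EF-1, and the Nppb SD stayed above that of the median gene and above that of Nppa when any 1 library of these groups was left out. Without NRG1 library 6 it was 0.29. With vehicle the SD was 0.59 for Nppb and 0.25 for Nppa, against a median of 0.18. Without vehicle library 4 it was 0.020 for Nppb and 0.14 for Nppa, both below the median gene at 0.19, and 99.0% of genes varied more than Nppb. Nppa was less variable than the median gene with EF-1, where 96.2% of genes varied more, and this held without any 1 EF-1 library. Its SD was 0.029 without EF-1 library 10 and, in the NRG1 group, 0.085 without library 5.

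Across the 12 libraries the Nppa and Nppb levels had a Pearson r of 0.91 on the log2(CPM + 1) scale (Spearman rho 0.80), given as a description, since the groups themselves set most of it. With each group's mean taken out, r was 0.66, and without vehicle library 4, the lowest in both genes, it was 0.34. Of 10996 other genes, Nppb was at place 175 in likeness to Nppa, and Nppa at place 70 in likeness to Nppb. The genes most like Nppa over the 12 libraries were ENSRNOG00000013874 (r = 0.98) and ENSRNOG00000023465 (r = 0.97), and those most opposed were ENSRNOG00000023340 (r = -0.96) and ENSRNOG00000006723 (r = -0.96). With group means taken out, these r were 0.76, 0.73, -0.64 and -0.69, in that order. The gene ENSRNOG00000023465 had a mean of 17.6 ± 4.28 CPM with vehicle, 76.8 ± 8.28 with NRG1 and 24.5 ± 2.37 with EF-1 (SD, n = 4 each). The genes most like Nppb were ENSRNOG00000068640 (r = 0.97) and ENSRNOG00000058386 (r = 0.97), and those most opposed were ENSRNOG00000025378 (r = -0.98) and ENSRNOG00000043143 (r = -0.97). Their r with group means taken out were 0.85, 0.89, -0.89 and -0.81, in that order. The gene ENSRNOG00000043143 had a mean of 109 ± 9.39 CPM with vehicle, 60.4 ± 6.05 with NRG1 and 84.8 ± 10.8 with EF-1 (SD, n = 4 each), so that its level with EF-1 lay between the others, as that of Nppb did.

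Nppa and Nppb are neighbours on rat chromosome 5, in the same orientation, with 0 other genes starting between them in the RefSeq annotation of GRCr8. Their promoters are shown because the genes lie side by side, both rose with NRG1 and only the Nppb level was above the vehicle range in all EF-1 libraries. The sequences come from RefSeq (GRCr8, + strand), where both genes were matched by symbol. They are chr5:163711934-163712183 for Nppa and chr5:163699758-163699954 for Nppb, both upstream of the annotated transcripts. Capitals mark matches, on either strand, to motifs of factors known to act in cardiomyocytes: GATAA (GATA factors), AAGTG (NKX2-5), GGTGT (T-box factors), CATTCC (MCAT) and TGANTCA (AP-1).
Nppa: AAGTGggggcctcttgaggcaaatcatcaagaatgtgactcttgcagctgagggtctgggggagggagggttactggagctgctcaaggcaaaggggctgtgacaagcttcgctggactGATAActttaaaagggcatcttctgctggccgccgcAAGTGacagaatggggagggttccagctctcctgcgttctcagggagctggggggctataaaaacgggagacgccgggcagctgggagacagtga
Nppb: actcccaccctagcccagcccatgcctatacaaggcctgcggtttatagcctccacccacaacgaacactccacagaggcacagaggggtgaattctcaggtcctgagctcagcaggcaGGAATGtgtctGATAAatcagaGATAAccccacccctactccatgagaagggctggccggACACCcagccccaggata
In the full window of 300 bases, GATAA was found once for Nppa and 3 times for Nppb, the third time across the last printed base. Of all 33469 promoter windows, 26.5% held GATAA and 1.02% held it 3 times or more. AAGTG was found 2 times for Nppa and 1 time for Nppb, downstream of the printed stretch. At least 1 match was held by 46.2% of windows and 2 or more by 13.9%. GGTGT was found 2 times for Nppb, both as its reverse complement and 1 of them downstream of the printed stretch, with 0 matches for Nppa. At least 1 match was held by 42.0% of windows and 2 or more by 11.2%. CATTCC was found 1 time for Nppb, as GGAATG, with 0 matches for Nppa and a share of 14.2%. TGANTCA had 0 matches in either window and a share of 7.33%. No match overlapped another. A match describes the letters in the window and not binding.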

How the data were processed

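PolyA RNA of 12 libraries was analysed. Salmon was run by the authors against the Rnor_6.0 transcriptome, tximport gave the sum for each gene with length scaling, and the authors deposited estimated counts per gene. For each library they also deposited Salmon's TPM, estimated counts (reads) and effective length per transcript. CPM and ratios were computed here.

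The deposited estimated counts were whole numbers and were used as such in edgeR 4.0.16 in R 4.3.3. TMM factors were used, genes were filtered by filterByExpr (minimum count 10), and 1 robust quasi-likelihood model, tested on simulated data, held all 12 libraries. The simulation gave every gene the same spread and no effect of single libraries, so it does not test how the model handles such effects. A call needed an adjusted p under 0.05 and a log2 fold change of 0.58 or more in either direction. Alternatives used DESeq2 1.42.0, limma 3.58.1 and sva 3.50.0. Permutation tests used a pseudocount of 1 CPM. Both genes are named, with the 2 most and 2 least correlated identifiers for each. Libraries of a group differed beyond sampling noise (16.1 to 194 for chi-square over its degrees of freedom), and all were kept. That measure compares with counting noise alone, so it cannot decide which libraries to keep. The study gives them as biological replicates. Its sequencing-run covariate was not used here, since runs were not assigned to libraries.

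The members and lists were chosen with earlier results of these data known, so p-values describe these libraries and are no independent support. Lists of pathway genes, regulators, hypertrophy genes, receptors and cell type markers were not run, because the name table used here (GRCr8) matched 0 identifiers of the count table. The transcripts of both genes were found from the ratio of their TPM, not from a table.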

Additional observations from a re-analysis of the deposited data

Results flagged for a closer look

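The Nppb level of vehicle library 4 lay far from the other 3 vehicle libraries. It was 208 CPM, and its gap to the nearest library was 0.952 of the range of the group, above Dixon's critical value for 4 values at the 95% level. On the TPM scale the same library had 521 TPM, with a gap of 0.912 of the range. Both scales come from the same reads, so they are not separate observations. Of 18 groups of values examined these were the only 2 past that value, and chance alone flags about 1 in 20 groups. The Nppa level of this library was also the lowest of its group, at 7757 CPM. Its total of 19280141 counts was within the range of the group.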

How the results depend on the processing

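The log2 fold changes and differences of both genes and the differences in their ratio kept their direction under every alternative run, with 240 alternative values for 15 results. Not counted are 36 differences per library without a library of a group not compared. These cannot move, but their adjusted p can. Of the 240, 232 kept their side of the threshold, 3 passed it anew and 5 no longer did.

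All 3 that passed anew were the Nppb fold change of EF-1 over vehicle (1.255), which was 1.27 with DESeq2, 1.42 with DESeq2 without EF-1 library 12 (adjusted p = 2.67e-04, an alternative chosen after seeing the data) and 1.40 with edgeR without that library. Leaving out 1 library at a time gave 1.04 to 1.40. All 5 that no longer passed were differences per library with 1 library left out, and the cause was not tested. Their ranges were 0.95 to 1.39 for Nppb in EF-1 over vehicle, -1.56 to -1.21 for Nppb in EF-1 over NRG1, and -1.22 to -0.89 and -1.80 to -1.44 for the log2 ratio in EF-1 and in NRG1 over vehicle. TPM and reads of the transcripts, also chosen after seeing the data, kept every call, and since the TPM ratio follows the count ratio by the way the transcripts were found, it was not run as an alternative.

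The number of genes called between EF-1 and vehicle (3) was 5 with library size only, 5 with totals without Nppa and Nppb, 93 with DESeq2, 1 with only the compared groups, 20 with 1 surrogate variable and 1727 with DESeq2 without library 12. It was 0 with limma-voom, where 2064 genes had an unadjusted p under 0.05. Leaving out 1 library gave 0 to 1554 with edgeR. It was 0 without any 1 of the vehicle libraries, NRG1 libraries 5 or 6 or EF-1 library 9, where 994 to 2985 genes had an unadjusted p under 0.05, and 1554 without EF-1 library 12. The cause was not tested. Calls for NRG1 over vehicle (1876 to 2351, with 2114 as reported) and for EF-1 over NRG1 (2359 to 3982, with 2961 as reported) stayed within 1.5 times. The median Nppb rank was 14.5 by TPM against 24.5 by CPM with NRG1, 51.5 against 109.5 with EF-1 and 119.5 against 271.5 with vehicle. Those by TPM are among transcripts and those by CPM among genes. The SDs within groups and the correlations without 1 library were also chosen after seeing the data.

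No paired analysis was possible because vehicle, NRG1 and EF-1 libraries have no number in common in the labels. The surrogate variable was above 0 in vehicle libraries 1 and 3 and NRG1 libraries 5 and 7 and below 0 in vehicle libraries 2 and 4 and NRG1 libraries 6 and 8, a likeness by order that the labels do not explain and that was not used to pair libraries. Depth did not limit either gene. The comparison of EF-1 with vehicle rests on 4 libraries per group and a single dose and time, with the sequencing run unassigned. How far each of these limits it was not tested.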
